A study of Arabidopsis thaliana with 6 samples.

Results

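The genes described here encode the histones of Arabidopsis thaliana, which are the core histones H2A, H2B, H3 and H4 and the linker histone H1. A list of 46 loci was matched to the probe sets of the ATH1 array, and a locus was taken as measured when the platform annotation pairs a probe set with it alone. That held for 15 of the 46 loci, namely 10 of 11 H2B genes, 2 of 11 H3 genes and all 3 H1 genes. No H2A gene (0 of 13) and no H4 gene (0 of 8) had a probe set of its own in this annotation. The annotation names no gene for 8730 of the 22746 probe sets that are not controls. A locus without a listed probe set is therefore not shown to be absent from the array. Another 16 loci, all 8 H4 genes, all 5 H3.1 genes and all 3 H3.3 genes, appear only on probe sets that the annotation pairs with all members of their type together. These shared probe sets lie outside the rule, were added after the annotation was seen, and are given as values of a histone type and never of a single gene.

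The arrays compared Col-0, the reference accession and wild type, with atsf1-2, a mutant in the Col-0 background of AtSF1, a factor of intron recognition during splicing. Untreated whole seedlings of 9 days, grown on MS agar at 23 C with 16 h of light and 8 h of dark, gave 3 biological replicates of each genotype with 1 array each. The mutated gene, AT5G51300, is not analysed here, since no probe set is paired with it alone, so that the labels were not checked against it. In whole seedlings, fewer cells of a type and less RNA per cell cannot be told apart. RCA, the Rubisco activase of green tissue, had signals of 18391 to 26679 over the 6 arrays. Of the root markers, PYK10, a glucosidase abundant in roots, had 14678 to 16811, EXPA18 had 391 to 529 and EXPA7 had 190 to 266. RCA and PYK10 were thus bright on all 6 arrays, and EXPA18 and EXPA7 were much dimmer. The seed storage, shoot meristem and pollen markers listed had no probe set of their own in the annotation and are not analysed here. The ratio of 3' to 5' signal of the actin control was 2.14 on Col-0 replicate 2 and 2.47 on atsf1-2 replicate 3, against 3.36 to 3.63 on the other arrays. Over the 6 arrays this ratio ran from 0.896 to 1.15 for the GAPDH control and from 1.22 to 1.46 for the ubiquitin control. Col-0 replicate 2 was lowest for both, and atsf1-2 replicate 3 had 1.09 and 1.31.

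Core histones form the protein spool around which DNA is wrapped in the nucleosome, and H1 binds the DNA between nucleosomes. Most H4, H3.1 and canonical H2A and H2B protein is made in S phase, when new DNA is packed, and such genes are called replication-linked here. Variants such as H3.3 are also made and deposited outside S phase and can replace the replication-linked forms. Unlike most histone transcripts of animals, those of plants carry a poly(A) tail. In young seedlings, dividing cells lie mainly in the shoot and root meristems and in young leaves.

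No histone gene passed the test between genotypes. Of the 15 measured genes, 8 passed the filter on dim signals and were tested, and none of these was called higher or lower (limma, adjusted p from 0.0734 to 0.857). Over all 13648 probe sets tested, 8.19% were called in either direction, 3% higher and 5.19% lower in atsf1-2. At an unadjusted p under 0.05, 2 of the 8 genes were higher, AT1G06760 and AT3G09480, and none was lower, where 9.5% and 16.5% of all tested probe sets were, 26% in all. The groups did not overlap for 4 of the 8 genes, each with atsf1-2 higher, against 31.3% of all tested probe sets in either direction and 12.1% in this one. The log2 fold change lay above 0 for 7 of 8 genes, where 41.5% of all tested probe sets did, with a median of 0.24 against -0.07. Each array centred on its median moved the median of all tested probe sets to 0.071 and that of the 8 genes to 0.38, with 5.53% of all tested probe sets called higher and 2.65% lower, and quantile normalization called 3.29% higher and 3.47% lower. Without Col-0 replicate 2 the median of the same 8 genes was 0.15, and without atsf1-2 replicate 3 it was 0.18. It was 0.27 to 0.30 without each of the other arrays, and 0.27 after quantile normalization. Without both Col-0 replicate 2 and atsf1-2 replicate 3 it was 0.089. For HTB2, HTB11, AT1G06760 and AT2G30620 these were the lowest Col-0 and the highest atsf1-2 array. Leaving out such arrays lowers a difference by construction. The 95% intervals, not adjusted for the number of probe sets, reached at most from 0.653-fold to 2.18-fold.

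**Figure D1:**
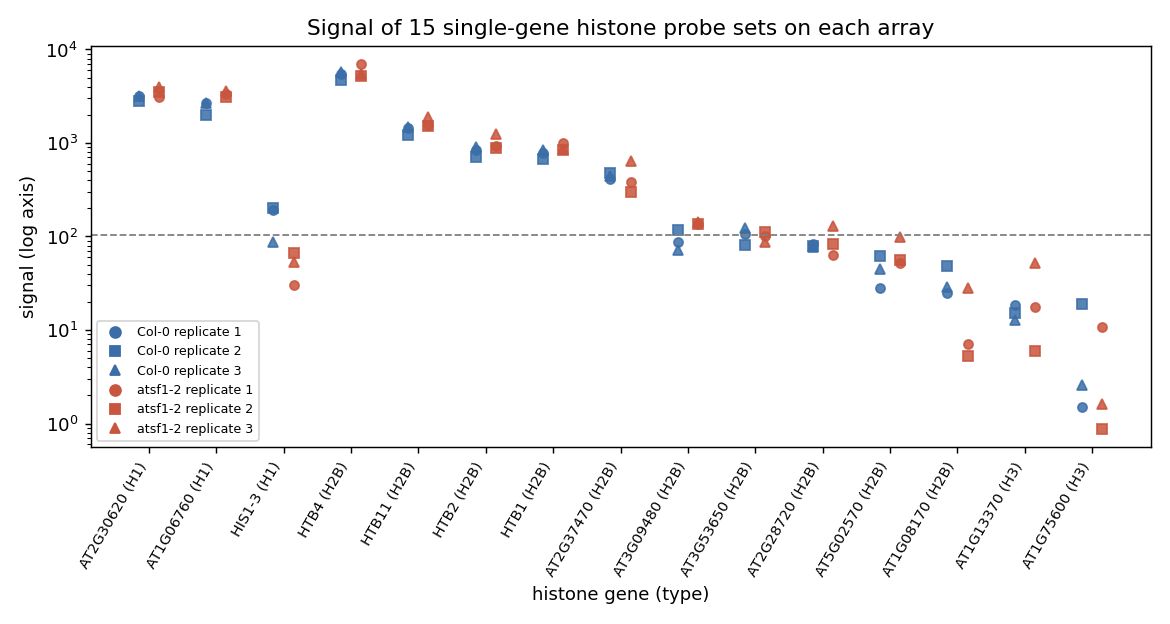
Signal on a log axis of the 15 histone genes with a probe set of their own, by gene and histone type, with 1 point for each array (blue Col-0, red atsf1-2, marker shape by replicate) and a dashed line at 104.44, the lowest geometric mean that was tested. HIS1-3 is the only one of the 15 whose atsf1-2 points all lie below its Col-0 points, and the points of HTB1, HTB11, AT3G09480 and AT1G06760 in atsf1-2 all lie above those in Col-0.

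The canonical H2B genes, which supply the bulk of H2B to new chromatin, differed between genotypes by no more than the test could tell from the spread between arrays. HTB1 (AT1G07790) had signals of 787, 676 and 833 in Col-0 and of 987, 835 and 863 in atsf1-2. The groups did not overlap, but the closest arrays, Col-0 replicate 3 and atsf1-2 replicate 2, lay close together. In log2 terms HTB1 differed by 0.23 ± 0.14 (SE), with an adjusted p of 0.335 by limma. It differed by 0.14 without Col-0 replicate 2, its lowest array, by 0.29 after quantile normalization and by 0.37 with median centring. HTB11 (AT3G46030) had signals of 1445, 1211 and 1484 in Col-0 and of 1564, 1504 and 1883 in atsf1-2. Its lowest array was Col-0 replicate 2, its highest atsf1-2 replicate 3, and the groups did not overlap. For HTB11 the log2 difference was 0.26 ± 0.14 (SE), with an adjusted p of 0.277 by limma, and 0.40 with median centring. It was 0.067 without these 2 arrays, a choice that lowers the difference by construction.

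HTB2 (AT5G22880) had signals of 848, 712 and 898 in Col-0 and of 937, 893 and 1249 in atsf1-2. Here the groups overlapped by a narrow margin, and atsf1-2 replicate 3 stood above all other arrays. For HTB2 the log2 fold change came to 0.32 ± 0.16 (SE), with an adjusted p of 0.248 by limma, and to 0.46 with median centring. It was 0.069 without Col-0 replicate 2 and atsf1-2 replicate 3, again the lowest Col-0 and the highest atsf1-2 array. HTB4 (AT5G59910) had signals of 5463, 4707 and 5742 in Col-0 and of 6960, 5247 and 5449 in atsf1-2. The groups overlapped, with only atsf1-2 replicate 1 above all Col-0 arrays. The log2 difference of HTB4 was 0.14 ± 0.14 (SE), with an adjusted p of 0.54 by limma, and -0.00079 after quantile normalization. Without atsf1-2 replicate 1, its highest array, it was 0.017, and without Col-0 replicate 2, its lowest, it was 0.060. With median centring it was 0.28.

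AT2G37470, a further H2B gene, was the only tested histone gene with a log2 fold change below 0. It had signals of 409, 477 and 447 in Col-0 and of 380, 299 and 644 in atsf1-2. The mutant arrays lay on both sides of all Col-0 arrays, with replicate 2 below them and replicate 3 above. The mean signal was 444 ± 34.0 in Col-0 and 441 ± 181 in atsf1-2 (SD, n = 3 for each). The log2 difference, atsf1-2 minus Col-0, was -0.084 ± 0.24 (SE), with an adjusted p of 0.857 by limma, and it lay above 0 after quantile normalization (0.023), with median centring (0.056) and without atsf1-2 replicate 2 (0.16). Without atsf1-2 replicate 3 it was -0.40, and without Col-0 replicate 2 and atsf1-2 replicate 3 it was -0.34. Of 5 canonical H2B genes tested, 2 had groups that did not overlap, HTB1 and HTB11, both higher in atsf1-2, where 12.1% of all tested probe sets were higher without overlap.

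The remaining canonical H2B genes were dim. AT2G28720 had a geometric mean of 84.3 over the 6 arrays and AT3G53650 one of 101, both below 104.44, the lowest value kept. AT2G28720 had signals of 83.2, 79.9 and 77.9 in Col-0 and of 63.3, 83.7 and 131 in atsf1-2. The mutant arrays again spread to both sides of the Col-0 arrays. AT3G53650 ranged from 82.0 to 124 in Col-0 and from 87.6 to 111 in atsf1-2, so that the mutant lay within the range of the wild type. HTB9, a further canonical gene, had no probe set of its own in the annotation.

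Of the 3 H2B genes whose proteins depart from the canonical sequence, 1 was bright enough to be tested. AT3G09480 had signals of 86.9, 117 and 70.9 in Col-0 and of 136, 135 and 142 in atsf1-2. All mutant arrays lay above all Col-0 arrays, and they lay closer to each other than the Col-0 arrays did. The log2 fold change of AT3G09480 was 0.62 ± 0.23 (SE; 95% interval 0.10 to 1.13, unadjusted; limma adjusted p = 0.124). With array weights, where 6.94% of all tested probe sets were called higher, it was 0.72 and passed (limma adjusted p = 0.027), and it passed under none of the other alternatives that tested it (limma adjusted p up to 0.361). Its Col-0 mean of 91.6 lay below 104.44, and with a pseudocount of 38.3 added to each signal the log2 fold change was 0.45, so that its size depends on how dim signals are treated.

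AT1G08170 encodes an H2B variant known from sperm cells and dry seeds. Its signals were 24.7, 48.2 and 28.5 in Col-0 and 7.14, 5.32 and 28.5 in atsf1-2. All of them lay below 104.44, and without the filter the log2 fold change was -1.66 (limma adjusted p = 0.282). AT5G02570, whose neighbour in the genome is the H2A gene HTA12, ranged from 28.3 to 61.7 in Col-0 and from 52.3 to 97.6 in atsf1-2. The H3 genes AT1G13370 and AT1G75600 were dimmer still, at 5.92 to 52.0 and 0.877 to 19.0 over the 6 arrays. The probe set shared by these H3 genes ranged from 0.443 to 13.0. At such signals these data give no order between genotypes.

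**Figure D2:**
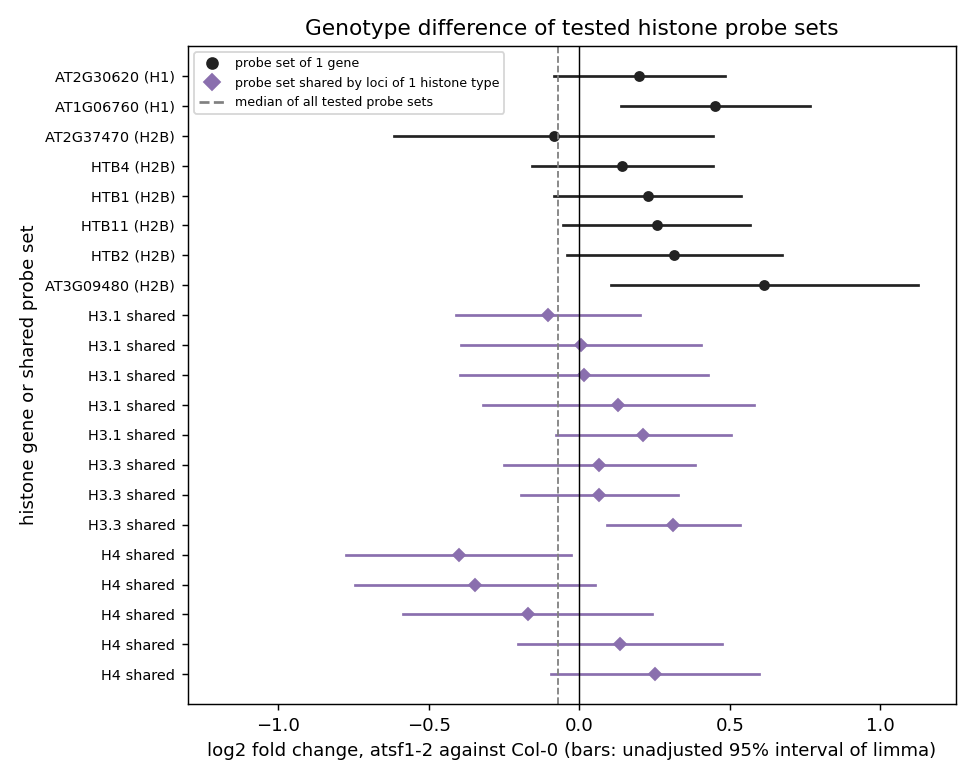
Log2 fold change of atsf1-2 against Col-0 for the 8 tested histone genes (black circles) and the 13 tested probe sets shared by loci of 1 histone type (violet diamonds), with the unadjusted 95% interval of limma as bars and the median of all tested probe sets, -0.07, as a dashed line. The intervals of 4 of the 21 exclude 0, those of AT1G06760, AT3G09480, 1 H3.3 and 1 H4 probe set. Of all tested probe sets, 26% had such an interval, with an unadjusted p under 0.05 by limma. None of the 21 passed after adjustment.

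H3.1, the replication-linked form of H3, was measured by 5 probe sets, each paired with all 5 H3.1 loci. None was called (limma, adjusted p from 0.339 to 0.99), where 8.19% of all tested probe sets were. Of the 5, 0 had an unadjusted p under 0.05 by limma, where 26% of all tested probe sets did. Their log2 fold changes ran from -0.10 to 0.21 with a median of 0.015. The brightest of them, 247192_at, had signals of 3101, 3141 and 3796 in Col-0 and of 3806, 2445 and 4013 in atsf1-2. The means were close, but the mutant arrays spread over more than the whole range of the Col-0 arrays. Its log2 fold change was 0.0047 ± 0.18 (SE), with an interval from 0.761-fold to 1.32-fold. The probe set 264262_at had signals of 1807, 1785 and 1956 in Col-0 and of 2226, 1845 and 2389 in atsf1-2, and differed by 0.21 ± 0.13 in log2 (SE, limma adjusted p = 0.339). Its value was 0.32 without atsf1-2 replicate 2 and 0.13 without atsf1-2 replicate 3. It was 0.11 without Col-0 replicate 2 and atsf1-2 replicate 3, its lowest Col-0 and highest atsf1-2 array. The other 3 H3.1 probe sets had overlapping groups and log2 fold changes of 0.13, 0.015 and -0.10. The directions of 4 of these 5 probe sets turned under scaling or when arrays were left out.

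H4, the partner of H3 in the core, was measured by 5 probe sets, each paired with all 8 H4 loci, and they did not move one way. On 3 of them atsf1-2 was lower, on 2 higher. None was called (limma, adjusted p from 0.165 to 0.618), where 8.19% of all tested probe sets were. At an unadjusted p under 0.05 by limma, 1 was lower, where 16.5% of all tested probe sets were. It was 261408_s_at, with signals of 1766, 2121 and 1663 in Col-0 and of 1495, 1092 and 1658 in atsf1-2. The groups did not overlap, with atsf1-2 replicate 3 just below the lowest Col-0 array. Of all tested probe sets, 19.2% were lower without overlap. The log2 difference was -0.40 ± 0.17 (SE), with an adjusted p of 0.165 by limma, and -0.22 without atsf1-2 replicate 2. The brightest, 247692_s_at, had signals of 6356, 6614 and 6901 in Col-0 and of 6170, 7890 and 10028 on atsf1-2 replicates 2, 1 and 3. The mutant arrays lay on both sides of the Col-0 arrays, and their log2 difference from Col-0 was 0.25 ± 0.16 (SE), with an adjusted p of 0.342 by limma. It was 0.43 without atsf1-2 replicate 2, 0.076 without atsf1-2 replicate 3, 0.075 without both Col-0 replicate 2 and atsf1-2 replicate 3, and 0.056 after quantile normalization. The other log2 fold changes were -0.35 ± 0.18 for 252562_s_at, -0.17 ± 0.19 for 266226_at and 0.13 ± 0.15 for 251924_at (SE). Without atsf1-2 replicate 2 they were -0.21, 0.018 and 0.27. Which of the 8 loci each probe set measures cannot be told from the annotation used here.

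H3.3, the variant also deposited outside S phase, was measured by 3 probe sets, each paired with all 3 H3.3 loci. The probe set 252849_at had signals of 7266, 6999 and 7268 in Col-0 and of 8647, 8633 and 9493 in atsf1-2. All mutant arrays lay above all Col-0 arrays, as for 12.1% of all tested probe sets, and the arrays within a genotype lay close together. Its log2 fold change was 0.31 ± 0.10 (SE; 95% interval from 1.07-fold to 1.45-fold, unadjusted), and it did not pass (limma adjusted p = 0.0781; unadjusted p = 0.00997). The call changed with array weights (0.27, limma adjusted p = 0.0437), and after quantile normalization the value was 0.14 (limma adjusted p from 0.0437 to 0.378 over the alternatives). The other H3.3 probe sets had overlapping groups and log2 fold changes of 0.067 ± 0.12 for 252824_at and 0.067 ± 0.14 for 250397_at (SE), both of which turned below 0 after quantile normalization (-0.10 and -0.076).

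Among the linker histones, AT1G06760 and AT2G30620 encode the main H1 forms, and HIS1-3 (AT2G18050) encodes a smaller H1 known to be induced by drought and abscisic acid. AT1G06760 had signals of 2655, 1985 and 2708 in Col-0 and of 3322, 3082 and 3571 in atsf1-2. All mutant arrays lay above all Col-0 arrays, with Col-0 replicate 2 the lowest of the 6. The mean was 2449 ± 403 in Col-0 and 3325 ± 245 in atsf1-2 (SD, n = 3 for each), a log2 difference of 0.45 ± 0.14 (SE; 95% interval 0.14 to 0.77, unadjusted). AT1G06760 had the smallest p of the 8 tested histone genes and did not pass (limma adjusted p = 0.0734; unadjusted p = 0.00891). With median centring, where 5.53% of all tested probe sets were called higher, it was 0.59 and passed (limma adjusted p = 0.0469). It was 0.31 without Col-0 replicate 2 (limma adjusted p = 0.196) and was 0.25 without Col-0 replicate 2 and atsf1-2 replicate 3 (limma adjusted p = 0.145). These are its lowest Col-0 and highest atsf1-2 array, so that leaving them out lowers the difference by construction. The limma adjusted p was at most 0.196 over all alternatives.

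AT2G30620 had signals of 3214, 2796 and 3196 in Col-0 and of 3120, 3482 and 4005 in atsf1-2. The groups overlapped, with atsf1-2 replicate 1 between the Col-0 arrays. The log2 difference of AT2G30620 was 0.20 ± 0.13 (SE), with an adjusted p of 0.357 by limma, and 0.34 with median centring. It was 0.040 without Col-0 replicate 2 and atsf1-2 replicate 3, its lowest Col-0 and highest atsf1-2 array.

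HIS1-3 had signals of 191, 201 and 87.2 in Col-0 and of 30.2, 66.9 and 53.1 in atsf1-2. All mutant arrays lay below all Col-0 arrays, and Col-0 replicate 3 lay nearer to the mutant than to the other Col-0 arrays. Its geometric mean over the 6 arrays, 84.4, was below the filter, so that the gene was not tested in the main comparison. Without the filter its log2 fold change was -1.66 ± 0.42 (SE; 95% interval -2.59 to -0.72, unadjusted), and it did not pass (limma adjusted p = 0.0632; unadjusted p = 0.0025), where 1.93% of all probe sets were called lower and 1.17% higher. Leaving out each array in turn gave log2 fold changes from -2.05 to -1.33, and the pseudocount gave -1.13.

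Replication-linked and variant histones could be compared only as a description, because 5 replication-linked genes and 1 variant gene were tested. The median log2 fold change was 0.23 over the 5 canonical H2B genes, and that of the single variant, AT3G09480, was 0.62, a difference of -0.39 with a spread between arrays of 0.41 (SD). This difference lay between -0.71 and -0.15 when single arrays were left out, and was -0.72 without Col-0 replicate 2 and atsf1-2 replicate 3. The values of -0.71, without Col-0 replicate 2, and -0.72 include AT3G53650, which passed the filter there. The difference was -0.23 with the pseudocount and -0.055 without the filter, where the dim genes of both classes entered. With the shared probe sets, 15 replication-linked probe sets had a median of 0.13 and 10 of them lay above 0. The 4 variant probe sets then had a median of 0.19, and all 4 lay above 0, where 41.5% of all tested probe sets did. The difference between these medians was -0.060. The groups did not overlap for 2 of 15 replication-linked probe sets in the higher and 1 in the lower direction, against 12.1% and 19.2% of all tested probe sets. Of the 4 variant probe sets, 2 had groups without overlap in the higher and 0 in the lower direction.

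**Figure D3:**
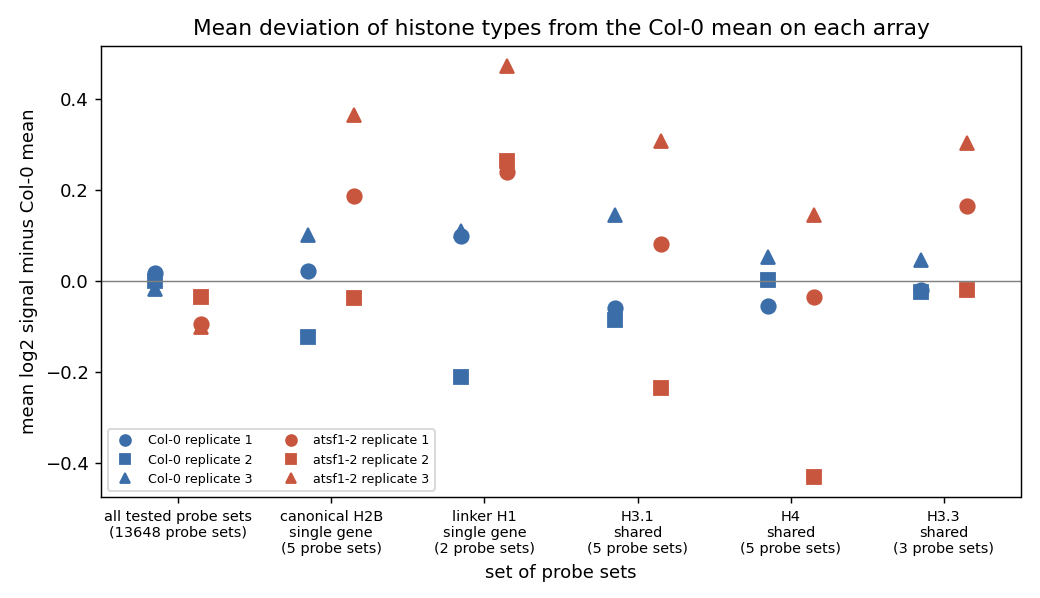
Mean log2 signal of each set of probe sets on each array, given as its deviation from the Col-0 mean of the same probe sets (blue Col-0, red atsf1-2, marker shape by replicate). In atsf1-2 the H4 set runs from -0.43 on replicate 2 to 0.15 on replicate 3 and the H3.1 set from -0.24 to 0.31. The mean over all tested probe sets is largely set by the scaling of the arrays and is drawn for reference only.

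Most histone signals varied more between the mutant arrays than between the wild-type arrays. The mean deviation from the Col-0 mean, on the log2 scale, had an SD over arrays of 0.053 in Col-0 and 0.30 in atsf1-2 for H4, and of 0.13 and 0.27 for H3.1 (n = 3 for each). For the canonical H2B genes it was 0.11 and 0.20, for H3.3 0.039 and 0.16, and for H1 0.18 and 0.13, so that H1 did not show this order. The SD was larger in atsf1-2 for 13 of 15 replication-linked probe sets and for 4 of 6 variant and linker ones, against 64.4% of all tested probe sets. For the variant AT3G09480 the order was the reverse, with a log2 SD of 0.36 in Col-0 and 0.037 in atsf1-2.

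Within the mutant the order of the arrays recurred over most histone probe sets. Of the 21 tested histone probe sets, 18 were highest on atsf1-2 replicate 3 and 19 were lowest on atsf1-2 replicate 2 among the mutant arrays, and 16 did both. Both held for 3 of 5 single-gene and 8 of 10 shared replication-linked probe sets, and for 5 of 6 variant and linker ones. HTB1 and HTB4 were highest on replicate 1. Of all tested probe sets, 36.3% were highest on replicate 3, 25.5% lowest on replicate 2 and 17.4% did both. Among probe sets at least as bright as the dimmest replication-linked one, 20.4% did both. Shared probe sets can measure the same transcripts, so that the 21 are not independent of each other. Actin's 3' to 5' ratio also set atsf1-2 replicate 3 apart (2.47, against 3.44 and 3.63 on the other mutant arrays). The ratios of the other controls did not do so to this degree. On replicates 1, 2 and 3 they were 1.15, 1.06 and 1.09 for GAPDH and 1.36, 1.46 and 1.31 for ubiquitin. On Col-0 replicate 2 the actin ratio was lower still, at 2.14. Its mean deviation from the Col-0 mean was -0.12 for canonical H2B, -0.21 for H1, -0.085 for H3.1 and -0.025 for H3.3. For each of these it was the lowest Col-0 array, but not for H4 (0.0029). A part of RNA quality in the histone signals was not tested.

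Few of the genes that work with histones had a probe set of their own in the annotation used here, which leaves many probe sets without a gene. Of 28 DNA replication genes, 3 were measured and 2 tested. Of 14 histone chaperones 3 were measured and tested, and of 19 cell cycle regulators none was measured. None of the 5 tested genes was called (limma, adjusted p from 0.0713 to 0.856), where 8.19% of all tested probe sets were. At an unadjusted p under 0.05, 1 was higher, where 9.5% of all tested probe sets were, and none was lower, where 16.5% were. That gene was AT4G37210, which encodes the Arabidopsis NASP, a chaperone that binds H3. It had signals of 344, 313 and 350 in Col-0 and of 412, 475 and 539 in atsf1-2. The groups did not overlap, with all mutant arrays above Col-0, as for 12.1% of all tested probe sets. In log2 it differed by 0.50 ± 0.15 (SE), with an adjusted p of 0.0713 by limma. It passed after quantile normalization (limma adjusted p = 0.0389, with 3.29% of all tested probe sets called higher). With median centring it passed too (limma adjusted p = 0.031, with 5.53% called higher). The limma adjusted p was at most 0.188 over all alternatives.

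The other chaperones carry H3 and H4 to the sites of assembly. ASF1B had signals of 397, 356 and 408 in Col-0 and of 510, 353 and 376 in atsf1-2, with overlapping groups and a log2 fold change of 0.077 ± 0.17 (SE). SGA2 (ASF1A) had signals of 320, 402 and 282 in Col-0 and of 393, 269 and 485 in atsf1-2. In SGA2 too, the lowest mutant array was replicate 2 and the highest replicate 3, and its log2 fold change was 0.17 ± 0.22 (SE). PRL, the MCM7 subunit of the replicative helicase, had signals of 395, 307 and 412 in Col-0 and of 419, 510 and 276 in atsf1-2. Its order of the mutant arrays was the reverse, with replicate 2 highest and replicate 3 lowest, and its log2 fold change was 0.079 ± 0.22 (SE). AT5G26680, a flap endonuclease, differed by -0.21 ± 0.24 in log2 (SE), by -0.036 without atsf1-2 replicate 1, -0.064 without Col-0 replicate 2 and -0.13 without Col-0 replicate 2 and atsf1-2 replicate 3. ICU2, the catalytic subunit of DNA polymerase alpha, was below the filter, with signals of 110, 86.7 and 96.2 in Col-0 and of 84.4, 62.7 and 61.5 in atsf1-2.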

How the data were processed

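The authors deposited linear signal intensities, 1 for each probe set of an array. The submitters' processing notes name MAS5 and Affymetrix Expression Console 1.2, with settings not given in the sources used here. Trimmed means of the arrays, without the lowest and highest 2%, were nearly equal at 500 to 500.1 in the deposited values. Median signals ran from 165 to 195, and the number of arrays limits the precision.

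Probe sets were paired with genes through the platform annotation and the RefSeq table of TAIR10.1, by gene identifier or, where that was outdated, by locus name. Where the annotation gives several loci, no gene is named. No locus had several probe sets of its own, so the rule of the highest mean had no effect.

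Signals were taken to log2, 64 control probe sets were left out, and probe sets at or above the 40th percentile of the mean were kept. The test between genotypes was that of limma 3.58.1 (R 4.3.3; two-sided, lmFit and then eBayes with a trend), with Benjamini-Hochberg adjustment over all 13648 probe sets at 0.05. The fit was tested on simulated data. The histone loci and the lists of related genes were chosen with earlier results of these data known, so no test was run over a list. The rule for named genes accounts for each member, gives values on every array for members past the threshold, and names the largest and smallest log2 fold change by type among the others and, of a related list with none past it, the 2 with the smallest p. With no member past the threshold, the further members, related genes and shared probe sets given by array were chosen after their values were seen. Alternatives were no filter, a 60th percentile filter, a pseudocount of 38.3, quantile normalization, median centring, array weights, eBayes without trend, a block for the replicate number, and fits with arrays left out.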

Additional observations from a re-analysis of the deposited data

How the results depend on the processing

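The count of histone genes called was 0 in both directions under 15 alternatives except that 1 was higher with median centring (AT1G06760) and 1 with array weights (AT3G09480). For related genes it was 0 except for 1 higher, AT4G37210, after quantile normalization and 1 with median centring. Their cause was not tested. The median log2 fold change of the tested histone genes stayed between 0.069 and 0.38, and without single arrays between 0.14 and 0.3. The values of 0.069 and 0.14 are medians over 9 genes, since AT3G53650 passed the filter there. On the same 8 genes as in the main fit they were 0.089 and 0.15. The replication-linked minus variant difference could not be given with the 60th percentile filter or without atsf1-2 replicate 1, where no variant gene was left.

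Some values near 0 turned, none of them past the threshold. Quantile normalization turned AT2G37470 (0.023), HTB4 (-0.00079), the H3.1 probe sets 247192_at (-0.10) and 257714_at (0.0026) and the H3.3 probe sets 250397_at (-0.076) and 252824_at (-0.10). Median centring turned AT2G37470 (0.056) and 257714_at (0.037). Array weights turned 247192_at (-0.016), 250433_at (-0.039) and 250434_at (-0.033). With both Col-0 replicate 2 and atsf1-2 replicate 3 left out, those known from earlier work on these data to stand apart, the values turned for 247192_at (-0.17), 250397_at (-0.10), 250433_at (-0.20), 250434_at (-0.16) and the H4 probe set 251924_at (-0.056). Without single arrays the log2 fold changes ran from -0.40 to 0.16 for AT2G37470, -0.13 to 0.23 for 247192_at, -0.034 to 0.22 for 250397_at, -0.038 to 0.30 for 250433_at, -0.17 to 0.20 for 250434_at, -0.037 to 0.27 for 251924_at, -0.018 to 0.14 for 252824_at, -0.35 to 0.018 for 266226_at, -0.12 to 0.33 for PRL, -0.027 to 0.40 for SGA2 and -0.085 to 0.18 for ASF1B.

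The titles number the replicates without saying that equal numbers were paired. Deviations of equal numbers correlated at 0.10, -0.19 and -0.21, and those of unequal numbers at -0.25 to 0.32. With the replicate block 0 histone genes were called, and the adjusted p was 0.181 for AT3G09480, with a median log2 fold change of 0.24. Over all tested probe sets the calls, 409 higher and 709 lower, became 171 and 263 with the block, 267 and 439 without the filter, 755 and 362 with median centring, 947 and 1713 with array weights, and 271 and 587 without the trend. They lay between 125 and 461 higher and between 144 and 786 lower without single arrays. Dim signals limit 7 of the 15 genes, which the filter left out.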
